A study of Mus musculus with 6 samples.

Results

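The genes of the TGF-beta and BMP family were measured by RNA-seq in p53-deleted mouse embryonic fibroblasts (MEFs) with or without knockdown of ARF. A gene belonged to the set if it was protein-coding and its symbol matched a fixed list of names: the TGF-beta, BMP, GDF and inhibin ligands, their receptors, the latent TGF-beta binding proteins, secreted antagonists, the SMADs and the ID genes. Of 54752 rows in the count table, 73 met the rule. A count in at least 1 library was found for 69, and 57 had enough counts to be tested. Inhbc, Nodal, Gdf3 and Bmp10 had no count. The symbol rule also brings in Bmp1, which encodes a protease and not a ligand.

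Embryonic fibroblasts are primary connective tissue cells grown from mouse embryos. The control group, shNT, is made up of 3 libraries of cells that received a negative control hairpin. The other group, shARF, is made up of 3 libraries of cells that received a hairpin against ARF, the product of the alternative reading frame of Cdkn2a that acts in the nucleolus and on the p53 inhibitor MDM2. Both hairpins were carried by lentivirus, cells of both groups were p53-deleted, and all titles carry the tag neo. The genotype label of the control libraries reads WT, whereas the line itself is labelled as deleted for p53, and the text follows the line. The titles call the libraries biological replicates, and the labels do not say whether they came from separate infections, cultures or embryos. The p-values therefore measure the spread between these libraries, which may be technical.

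TGF-beta family ligands are dimers that join type I and type II receptor kinases at the cell surface. TGF-betas and activins act mainly through SMAD2 and SMAD3, and BMPs and most related GDFs through SMAD1, SMAD5 and SMAD9, each with SMAD4. Secreted antagonists such as noggin, chordin and follistatin hold ligands away from the receptors, SMAD6 and SMAD7 block the receptors from inside, and the ID genes are classical targets of BMP signalling. In fibroblasts the TGF-beta branch is known for driving matrix production, and in the embryo the BMP branch shapes cartilage, joints and limbs.

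Libraries held 40.26 to 47.02 M counts. Levels are given as CPM, counts relative to the library total scaled by the TMM method, and as CPM per kilobase of merged exons (RPKM) wherever genes are compared with each other. A gene was called when the quasi-likelihood test of edgeR gave an adjusted p (Benjamini-Hochberg over the 17128 genes tested) under 0.05. Of all tested genes 56.4% were called, 28.8% higher and 27.7% lower in shARF. Higher calls were 51.0% of all calls, or 40.6% when library sizes alone set the scale. Cdkn2a, the gene that the hairpin targets, read 231, 218 and 223 CPM in shNT and 95.6, 103 and 107 CPM in shARF (log2 fold change -1.14, SE 0.0459). These counts are of the whole gene and do not separate the ARF transcript from others of Cdkn2a. The groups also differed in sex-linked genes: Xist was at 387 ± 26.5 CPM (SD, n = 3) in shNT and 45.7 ± 7.49 CPM in shARF, and Y-linked Kdm5d at 0.782 ± 0.216 and 19.5 ± 0.623 CPM. Other Y-linked genes were detected in both groups and differed less: Ddx3y (24.4 and 85.3 CPM), Eif2s3y (12.8 and 38.3 CPM) and Uty (9.61 and 21.7 CPM). The labels do not say whether both groups began from 1 population of cells, so a difference between the starting cells cannot be told apart from the knockdown in any change below. Markers of fibroblasts (10 genes) were detected in both groups, with a summed level of 21000 to 22600 CPM in shNT and 24300 to 24500 CPM in shARF, although Pdgfra (log2 fold change -2.46) and Dcn (-2.12) fell. Mesothelial markers rose for 6 of 7 genes (105 to 108 CPM summed in shNT, 130 to 132 CPM in shARF). Upk1b and Lrrn4 had no count in shNT, whereas Msln, most of the shNT sum, fell from 84.2 ± 1.63 to 54.4 ± 1.37 CPM (-0.63). Joint and cartilage markers fell for 5 of 6 tested (278 to 289 CPM against 90.7 to 94.7 CPM), and Matn1 and Col9a1 had no count. Endothelial markers summed to 5.6 to 6.39 CPM in shNT and 4.18 to 4.85 CPM in shARF, with Cdh5 and Tie1 at 0. Of the 4 tested, Kdr rose (3.47) and Tek (-4.94) and Erg (-1.52) fell. In bulk RNA, fewer cells of a type and less RNA per cell cannot be told apart.

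Promoter windows of 5 members are shown: Gdf10 and Gdf2, neighbouring ligand genes that were tested and had counts in shARF alone, and 3 of the ID genes, classical BMP targets that fell. Id1, the other ID gene, had no window in the RefSeq table. Each window runs from 250 bases before to 50 bases after the start site in the RefSeq annotation of build GRCm38.p6, 5′ to 3′ on the gene's strand. Capitals mark GGCGCC and CAGAC or its reverse complement GTCTG, which are letters found in SMAD-bound DNA. Id2 lies on the minus strand at chr12:25096043-25096342, Id3 on the plus strand at chr4:136143572-136143871 and Id4 on the plus strand at chr13:48260866-48261165. Gdf10 lies at chr14:33923337-33923636 and Gdf2 at chr14:33940789-33941088, both on the plus strand.
Id2: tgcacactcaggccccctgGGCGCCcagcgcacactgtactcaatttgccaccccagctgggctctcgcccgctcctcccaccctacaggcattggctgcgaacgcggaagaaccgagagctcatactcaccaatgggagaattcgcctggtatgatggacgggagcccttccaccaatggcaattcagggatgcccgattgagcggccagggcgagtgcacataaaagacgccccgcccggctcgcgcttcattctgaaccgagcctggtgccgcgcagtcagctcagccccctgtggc
Id3: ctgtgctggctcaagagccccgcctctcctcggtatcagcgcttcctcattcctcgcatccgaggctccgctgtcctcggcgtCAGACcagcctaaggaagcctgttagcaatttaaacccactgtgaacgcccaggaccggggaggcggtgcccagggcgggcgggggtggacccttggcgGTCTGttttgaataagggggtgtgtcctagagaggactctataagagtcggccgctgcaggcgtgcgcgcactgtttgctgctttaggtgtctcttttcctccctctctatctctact
Id4: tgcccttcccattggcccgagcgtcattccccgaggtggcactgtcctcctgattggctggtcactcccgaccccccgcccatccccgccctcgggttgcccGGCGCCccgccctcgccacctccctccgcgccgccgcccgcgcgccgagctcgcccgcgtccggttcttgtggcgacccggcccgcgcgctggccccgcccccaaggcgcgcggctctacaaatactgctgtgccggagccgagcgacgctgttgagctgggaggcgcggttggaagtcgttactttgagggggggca
Gdf10: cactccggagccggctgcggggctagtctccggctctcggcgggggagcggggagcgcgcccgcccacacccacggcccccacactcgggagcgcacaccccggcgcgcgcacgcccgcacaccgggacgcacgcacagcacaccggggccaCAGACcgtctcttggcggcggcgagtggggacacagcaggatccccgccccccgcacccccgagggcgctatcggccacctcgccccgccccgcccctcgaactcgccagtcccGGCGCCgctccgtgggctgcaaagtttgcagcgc
Gdf2: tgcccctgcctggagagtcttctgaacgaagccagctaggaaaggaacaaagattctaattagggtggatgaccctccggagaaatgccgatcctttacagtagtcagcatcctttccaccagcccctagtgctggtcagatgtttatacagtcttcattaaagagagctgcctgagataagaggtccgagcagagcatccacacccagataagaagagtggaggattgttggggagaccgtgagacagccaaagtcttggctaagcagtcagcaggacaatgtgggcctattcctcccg
GGCGCC stood at -231 from the start site in Id2, at -148 in Id4 and at 17 in Gdf10. CAGAC, on either strand, stood at -167 and -68 in Id3 and at -98 in Gdf10. The first of the Id3 matches shares 2 bases with CGTCA, the reverse complement of TGACG, at -170. In the Gdf2 window neither was found, and a match to TATAAA stood on the other strand at -107. Windows were found for 49 members (60 windows), and 24 members had none. GGCGCC was present in 25.0% of the member windows and in 11.9% of 32817 windows of the same length from all genes; CAGAC was present in 48.3% and 49.6%, and GGGCGG, the core of sites for SP1-type factors, in 63.3% and 35.6%. The Gdf10 window had 42 CG dinucleotides and the Gdf2 window 6, against a median of 7 over all windows and 21.5 over member windows. GGCGCC and GGGCGG both hold a CG. The windows compared were not matched for CG content, and its part in the higher member shares was not tested. A match of letters is a description of the window and does not show that a factor binds there.

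Of the 57 tested members, 24 rose and 20 fell in shARF, and 13 were not called. That is 77.2% called, where 56.4% of all tested genes were called. Changes of at least 2-fold were called for 11 members higher and 10 lower, against 6.59% and 7.78% of all tested genes. For 46 members (80.7%) no shARF library lay within the range of the shNT libraries or the reverse, as for 64.6% of all tested genes. Their median log2 fold change was 0.06, beside -0.01 for all tested genes, and the median size of the change was 0.67, beside 0.34. The members and roles were chosen with earlier results of these data known, so these shares only describe the set. Members of different roles did not move in 1 direction, as the plot by role shows.

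**Figure D1:**
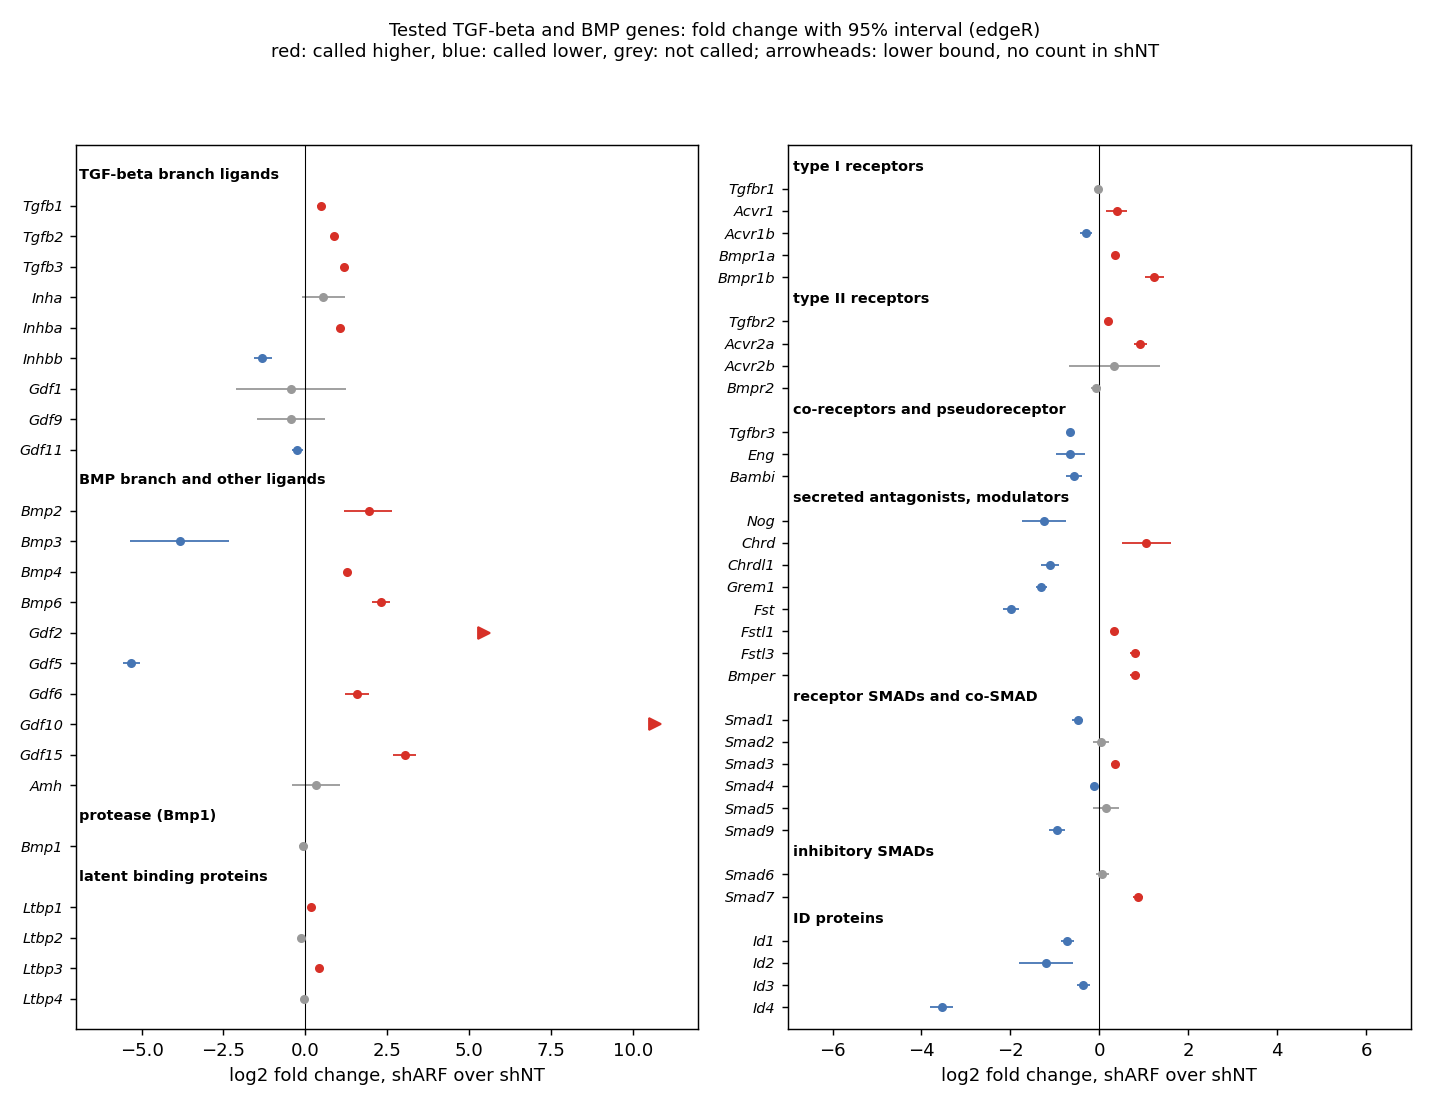
Log2 fold change (shARF over shNT, with a 95% interval derived from the edgeR F test) of tested members, grouped by role. Gdf10 and Gdf2 had no count in shNT and are drawn as arrowheads at the lower bound of their change, and the 4 ID genes and 3 co-receptors all lie left of 0.

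The TGF-beta branch ligands included 15 genes, of which 9 were tested, 4 rose and 2 fell. The share called was 66.7%, beside 56.4% of all tested genes. All 3 TGF-beta genes rose, as did 28.8% of all tested genes. Tgfb3, the most abundant of them per length, had 97.0, 99.2 and 97.8 CPM in shNT, then 225, 222 and 222 CPM in shARF. The groups were far apart, 2.28-fold (log2 fold change 1.19, SE 0.022, edgeR adjusted p 1.89e-07). Centred on the median change of chromosome 12 (0.27 over 658 genes), the change of Tgfb3 was 0.92 and was still called. Tgfb2 went from 80.2, 79.1 and 77.0 CPM to 141, 149 and 144 CPM (log2 fold change 0.88), again without overlap. Tgfb1 rose less, from 43.2, 44.5 and 45.3 CPM to 58.4, 64.3 and 62.8 CPM (0.48). Because genes can be compared only per length, the sum of the 3 was taken as RPKM. It was 51.1 to 51.8 in shNT and 102 to 104 in shARF, with Tgfb3 at 56.1 to 56.6% and 63.1 to 64.8% of it (means of 44.9% and 52.7% with the longest coding length). The share of Tgfb1 was 16.8 to 17.6% in shNT and 11.3 to 12.3% in shARF. Tgfb3 overlaps Ttll5 on the opposite strand by 5149 bases. Ttll5 rose by a similar amount (log2 fold change 1.15), and because no source used here says whether counting was by strand, reads of the 2 genes cannot be told apart where they overlap.

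Inhba, whose product forms activin A, rose 2.1-fold. It stood at 98.9, 91.6 and 87.6 CPM in shNT and at 197, 197 and 190 CPM in shARF (log2 fold change 1.07, SE 0.047). Inhbb, the other activin subunit gene detected, fell from 7.75, 9.16 and 9.62 CPM to 3.28, 3.49 and 3.94 CPM (-1.31, SE 0.114). The 2 activin genes therefore moved in opposite directions, and Inhba made up 85.8 to 89.5% of their RPKM in shNT and 97.0 to 97.6% in shARF. Gdf11 was lower by a small amount (32.5 ± 1.82 and 27.5 ± 2.27 CPM, SD, n = 3; log2 fold change -0.24, adjusted p 0.0267), a call lost when any of 3 libraries was left out (adjusted p 0.0729 to 0.0853, without shNT 1, shARF 1 or shARF 2). Inha (1.17 ± 0.4 and 1.72 ± 0.227 CPM), Gdf9 and Gdf1 were not called. The interval of Gdf1 (-2.12 to 1.25 on the log2 scale) spans 2-fold changes in either direction. That of Gdf9 (-1.48 to 0.6) reaches a 2-fold fall but not a 2-fold rise. In shARF, 1 library of Gdf1 stood apart (87, 6 and 67 counts). Gdf1 lies wholly within Cers1 on the same strand (1771 bases), and Cers1 was not called (3.04 and 3.61 CPM). Reads of Gdf1 and Cers1 cannot be told apart there, even with counting by strand. Lefty1 (25 counts in all), Lefty2 (3) and Inhbe (2) were under the filter.

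The BMP branch and other ligands included 17 genes, of which 10 were tested, 7 rose and 2 fell. Each called change was at least 2-fold. The share called was 90.0%, beside 56.4% of all tested genes. Over all tested genes, 6.59% rose and 7.78% fell at least 2-fold. The ligands that rose were Bmp2, Bmp4, Bmp6, Gdf2, Gdf6, Gdf10 and Gdf15, and Gdf5 and Bmp3 fell. Bmp4, a ligand of mesoderm and limb development, was the most abundant per length in both groups. It stood at 18.9, 19.1 and 18.7 CPM in shNT and 46.3, 45.1 and 45.2 CPM in shARF (log2 fold change 1.27, SE 0.038, or 1.07 when centred on chromosome 14). Every shARF library lay above every shNT library. Bmp6 rose 4.96-fold, from 1.59, 1.7 and 2.06 CPM to 9.13, 8.94 and 8.43 CPM. Gdf15, a stress-induced member of the family with a receptor outside it, rose 8.22-fold, from 0.804, 0.595 and 0.875 CPM to 6.03, 6.55 and 6.08 CPM (adjusted p 5.52e-06). Gdf6, a joint and skeletal ligand, rose 2.98-fold, from 0.565, 0.636 and 0.559 CPM to 1.81, 1.87 and 1.59 CPM. Bmp2, a bone-inducing ligand, rose on few counts, from 0.239, 0.267 and 0.219 CPM in shNT to 1.12, 0.616 and 1.05 CPM in shARF (33 and 124 counts in all; log2 fold change 1.93, SE 0.307).

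Gdf10, a BMP-like ligand also known as BMP3b, and its neighbour Gdf2, which encodes BMP9, had counts in shARF and none in shNT. Gdf10 had 0 counts in every shNT library and 1537, 1645 and 1600 counts in shARF, or 34.3, 37.5 and 35.8 CPM. Against a floor of 3 counts over the shNT group, it was at least 1620-fold higher. Gdf2 had 44, 42 and 44 counts in shARF (0.982, 0.958 and 0.984 CPM) and 0 in shNT, which makes it at least 44.2-fold higher by the same floor. Gdf2 starts 3055 bases downstream of the end of Gdf10 on the same strand of chromosome 14. Among other genes within 100 kilobases, Rbp3, Gm30083 and Gm5460 had no count in any library and Zfp488 had 3. A transcript that reads past the end of Gdf10 and separate expression of Gdf2 cannot be told apart from gene counts.

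Gdf5, which helps form joints and marks joint progenitors, showed the reverse pattern. It stood at 11.5, 12.8 and 11.8 CPM in shNT and 0.312, 0.274 and 0.313 CPM in shARF, a 39.8-fold fall (log2 fold change -5.32, SE 0.105; adjusted p 2.25e-07). Bmp3, which is known to oppose other BMPs, fell from 0.738, 1.11 and 1.48 CPM to 0.0893, 0 and 0.134 CPM, with 149 counts in shNT and 10 in shARF (-3.84, SE 0.636). Amh was not called (0.516 ± 0.177 and 0.652 ± 0.119 CPM; interval -0.41 to 1.06 on the log2 scale). Per length, the 17 ligands summed to 15.1 to 15.6 RPKM in shNT and 34.5 to 34.6 RPKM in shARF. In shNT, Bmp4 made up 54.5 to 55.8% of the sum and Gdf5 33.0 to 35.4%. In shARF, Bmp4 kept 57.9 to 59.5%, Gdf10 made up 19 to 20.8%, Gdf15 9.41 to 10.2% and Gdf5 0.341 to 0.392%. The second ligand was thus Gdf5 in one group and Gdf10 in the other. Gdf5 fell beside the joint and cartilage marker list given above, and the part of cell composition in its change was not tested. Of the rest, Bmp5 had 48 counts in all, Bmp8a 21, Gdf7 18, Bmp8b 16, Bmp15 8 and Bmp7 2.

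Bmp1, which cleaves procollagens and chordin, had 121, 114 and 122 CPM in shNT and 115, 122 and 106 CPM in shARF and was not called (interval -0.19 to 0.08 on the log2 scale). Ltbp1, which anchors latent TGF-beta in the matrix, was the most abundant binding protein per length and rose slightly, from 507, 506 and 502 CPM to 578, 572 and 553 CPM (log2 fold change 0.17). Ltbp3 rose from 267, 277 and 280 CPM to 372, 370 and 368 CPM (0.43), again without overlap. Ltbp2, at 157, 156 and 160 CPM and then 149, 151 and 135 CPM (adjusted p 0.0663), and Ltbp4 (43.3 ± 1.84 and 42.3 ± 1.04 CPM) were not called. The change of Ltbp1 was 0.08 with library sizes alone and 0.31 when changes were centred on the chromosome, and both were called.

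**Figure D2:**
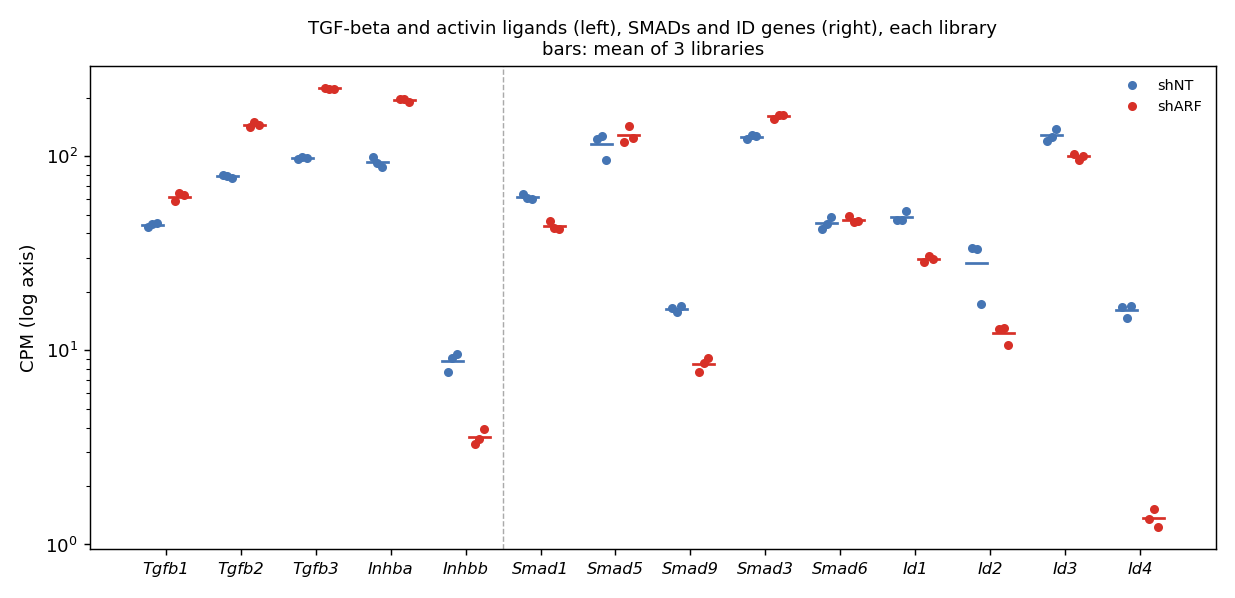
CPM on a log axis of TGF-beta and activin ligands, SMADs and ID genes, one point per library (blue shNT, red shARF), with a bar at the mean of 3 libraries. The TGF-betas and Inhba lie higher in shARF, Inhbb, Smad9, Id1 and Id4 lower, and 1 shNT library of Id2 (17.3 CPM) lies apart from the other 2.

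Among the 7 type I receptors, 5 were tested, of which 3 rose and 1 fell (80.0% called, beside 56.4% of all tested genes). Bmpr1a, the receptor of BMP2 and BMP4, was the most abundant, at 52.8 to 55.9% of the summed type I RPKM in shNT and 55.3 to 57.7% in shARF. It rose from 199, 197 and 191 CPM to 242, 252 and 255 CPM (log2 fold change 0.35, SE 0.029), a change that falls to 0.16 when centred on chromosome 14. Bmpr1b, whose ligand preference includes GDF5, rose 2.36-fold from 5.65, 5.34 and 6.36 CPM to 12.7, 14.5 and 13.8 CPM (1.24). The groups did not overlap for either gene. Acvr1, a BMP receptor also known as ALK2, rose by a smaller amount, from 58.1, 66.2 and 67.8 CPM to 79.6, 76.4 and 95 CPM (0.39, SE 0.096). Acvr1b, the activin type I receptor, fell from 18 ± 0.852 to 14.6 ± 0.269 CPM (-0.30). Tgfbr1 was not called (49.5 ± 0.822 and 48.4 ± 0.931 CPM). Acvrl1 had 21 counts and Acvr1c 18 in all libraries, and Acvr1c had none in shARF.

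The 4 type II receptors were all tested: 2 rose and none was called lower. Tgfbr2, the TGF-beta type II receptor, was at 376, 394 and 379 CPM and then at 427, 444 and 444 CPM (log2 fold change 0.20). It made up 70.6 to 72.9% of the type II RPKM in shNT and 68.1 to 69.8% in shARF. The change was 0.11 with library sizes alone, and the call was lost when changes were centred on the chromosome (0.07, adjusted p 0.0656). Acvr2a, which binds activins and several BMPs, rose from 44.0, 41.4 and 40.7 CPM to 72.6, 83.0 and 82.6 CPM (0.92, SE 0.063). It overlaps Orc4 by 446 bases on the opposite strand, and Orc4 rose by 0.53 on the log2 scale. Bmpr2, the main BMP type II receptor, had 200, 187 and 181 CPM and then 173, 187 and 179 CPM, and it and Acvr2b (0.871 ± 0.32 and 1.1 ± 0.554 CPM) were not called.

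All 3 co-receptor and pseudoreceptor genes fell, as did 27.7% of all tested genes. Tgfbr3, the betaglycan that presents TGF-beta2 and inhibin, stood at 259, 258 and 260 CPM in shNT and 163, 165 and 161 CPM in shARF (log2 fold change -0.67, SE 0.02; adjusted p 7.66e-07). The groups did not overlap, and the gap was far larger than the spread within either. Eng, the endoglin of endothelial and stromal cells, fell from 5.96 ± 0.692 to 3.79 ± 0.491 CPM (-0.65). Bambi, a pseudoreceptor without a kinase, fell from 7.64 ± 0.21 to 5.15 ± 0.36 CPM (-0.57).

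The 10 secreted antagonists and modulators were all called except Chrdl2 (13 counts in all, not tested): 5 fell, 4 rose. Of all tested genes 56.4% were called. The fall was at least 2-fold for each of the 5, as for 7.78% of all tested genes. Grem1, which binds BMP2 and BMP4, stood at 194, 180 and 175 CPM in shNT and 74.9, 77.1 and 70.9 CPM in shARF (log2 fold change -1.30, SE 0.05). The groups did not overlap. Fst, the follistatin that binds activin, went from 32.3, 34.6 and 31.7 CPM to 8.99, 8.44 and 7.63 CPM (-1.98). Chrdl1 fell from 18, 20 and 17.4 CPM to 7.9, 8.39 and 9.35 CPM (-1.11), and Nog from 0.924 ± 0.0718 to 0.389 ± 0.0645 CPM at 126 and 52 counts (-1.24). The other 4 tested genes of the group went the other way. Chrd, or chordin, rose from 1.3, 1.15 and 0.826 CPM to 2.83, 2.14 and 1.86 CPM (1.05), and it overlaps Thpo by 1385 bases on the opposite strand, which rose too (1.51, from 0.142 to 0.404 CPM). Bmper (0.80) and Fstl3 (0.80), a binder of activins, rose alike, from 16.2 ± 0.624 to 28.1 ± 0.614 CPM and from 20.8 ± 0.715 to 36.2 ± 1.03 CPM. Fstl1, a secreted glycoprotein related to follistatin, was the highest of all members per length (276 and 345 RPKM), at 1330, 1370 and 1370 CPM in shNT and 1690, 1720 and 1670 CPM in shARF (0.32).

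**Figure D3:**
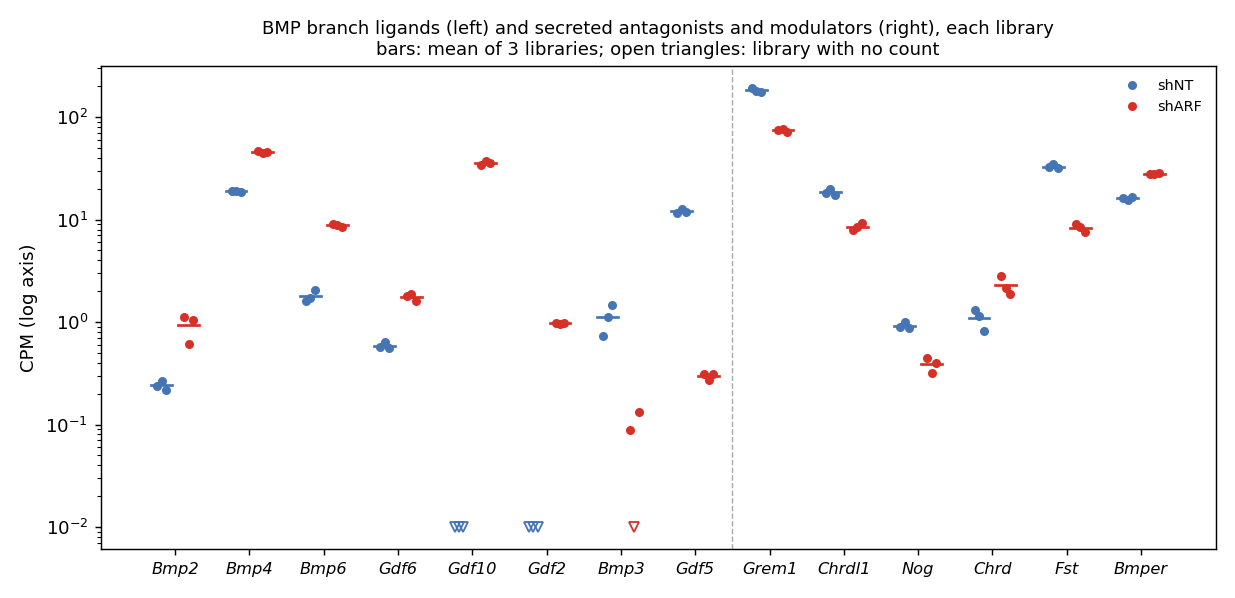
CPM on a log axis of BMP branch ligands (left of the dashed line) and secreted antagonists and modulators (right), one point per library, with open triangles where a library had no count. Gdf10 and Gdf2 have no count in shNT, Gdf5 falls from about 12 to 0.3 CPM, and Grem1 from 183 to 74.3 CPM.

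Summed per length, the BMP antagonists Nog, Chrd, Chrdl1, Chrdl2 and Grem1 came to 45.4 to 50.2 RPKM in shNT and 19.1 to 20.4 RPKM in shARF. Grem1 made up 92.1 to 93.2% of the sum in shNT and 89.7 to 91.1% in shARF. The ratio of this sum to that of the BMP ligands Bmp2, Bmp4 to Bmp8b and Gdf5 to Gdf7 was 3.18 to 3.55 in shNT and 0.811 to 0.878 in shARF. The ratio depends on which length is used: with the longest coding length it was 13.6 in shNT and 3.13 in shARF. Either way it was lower in shARF. The ratio also depends on the genes chosen. It leaves out Bmper, which rose from 3.35 to 5.81 RPKM, and Bmp3, Gdf10 and Gdf2, among others. These are sums of mRNA, given with no test, and hold no measure of the protein.

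**Figure D4:**
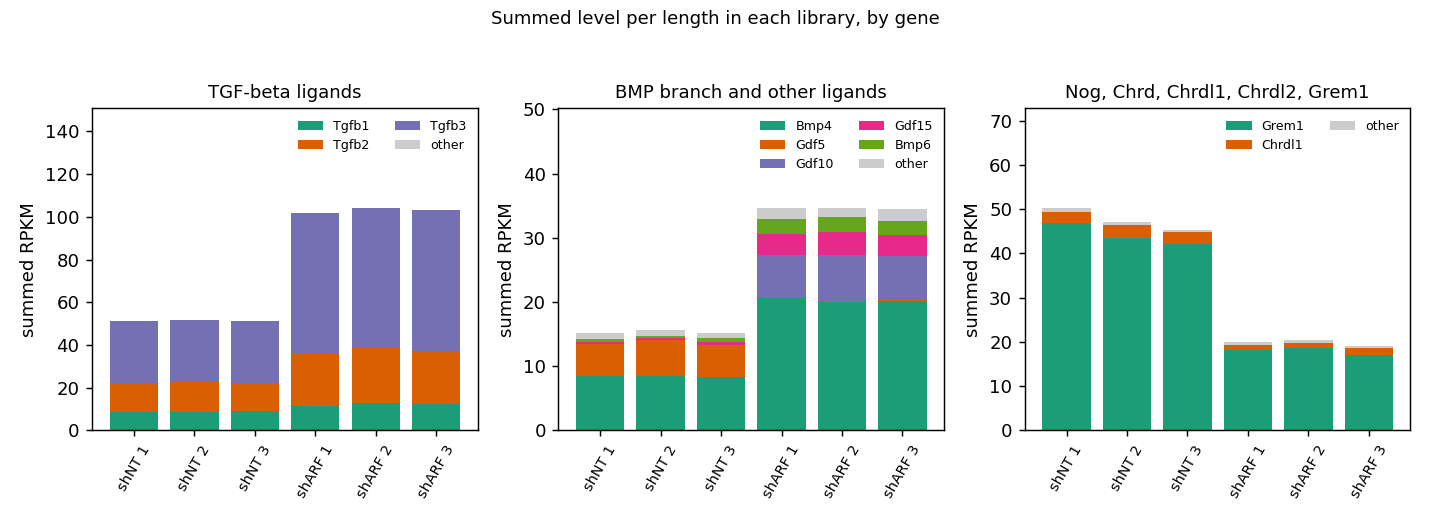
Summed RPKM of the 3 TGF-beta ligand genes, the 17 BMP branch and other ligands and the BMP antagonists Nog, Chrd, Chrdl1, Chrdl2 and Grem1 in each library, split by gene. The TGF-beta sum and the sum of the 17 ligands are higher in all shARF libraries (102 to 104 and 34.5 to 34.6 RPKM) than in all shNT libraries (51.1 to 51.8 and 15.1 to 15.6 RPKM). The antagonist sum is lower (19.1 to 20.4 against 45.4 to 50.2 RPKM). The 17 ligands include Gdf10 and Gdf15, which the ratio given in the text leaves out.

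Of the SMADs that carry the signal, 1 rose, 3 fell and 2 were not called (66.7% called, beside 56.4% of all tested genes). Smad3 stood at 122, 128 and 127 CPM in shNT and 156, 162 and 162 CPM in shARF (log2 fold change 0.35, SE 0.03), falling to 0.22 when centred on chromosome 9. Smad2 was not called (47.2 ± 4.01 and 48.2 ± 2.8 CPM). On the BMP side, Smad1 went from 63.5, 60.5 and 59.8 CPM to 46.1, 42.7 and 41.9 CPM (-0.49, or -0.22 when centred on chromosome 8), and Smad9 from 16.5, 15.8 and 16.8 CPM to 7.72, 8.55 and 9.08 CPM (-0.95). Smad5 varied between libraries (123, 127 and 95.6 CPM, then 118, 143 and 124 CPM) and was not called. The sum over Smad1, Smad5 and Smad9 was 25.5 to 29.8 RPKM in shNT and 24.7 to 27.7 RPKM in shARF, ranges that overlap. Smad4, shared by both branches, fell by a small amount, from 123, 123 and 120 CPM to 115, 113 and 111 CPM (-0.11, adjusted p 0.0117), reached -0.20 with library sizes alone, and lost its call without shARF 3 (adjusted p 0.0579). Of the inhibitory SMADs, Smad7 rose from 41.6, 41.6 and 44.4 CPM to 77.2, 80.7 and 74.5 CPM (0.86, SE 0.047), and Smad6 was not called (45 ± 3.16 and 47 ± 1.97 CPM).

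All 4 ID genes fell, as did 27.7% of all tested genes. Id4 fell most, from 16.7, 14.6 and 16.8 CPM to 1.36, 1.53 and 1.23 CPM, an 11.7-fold change (log2 fold change -3.54, SE 0.107; adjusted p 7.79e-07). Id1 fell from 46.7, 47 and 52.4 CPM to 28.6, 30.5 and 29.6 CPM (-0.72). Id3, the most abundant per length, fell least, from 119, 126 and 138 CPM to 103, 95.7 and 100 CPM (-0.36), or by -0.56 when centred on chromosome 4. Id2 stood at 33.8, 33.2 and 17.3 CPM in shNT and 12.9, 13.0 and 10.7 CPM in shARF (-1.21, SE 0.255). The third shNT library was well under the other 2 but above all shARF libraries. The ID sum was 125 to 134 RPKM in shNT and 85.5 to 87.9 RPKM in shARF.

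Other genes of the pathway were taken from 3 lists of 60 in all, of which 47 were tested. Among the 47, 22 rose, 11 fell and 14 were not called (70.2% called, beside 56.4% of all tested genes). The lists were chosen with earlier results of these data known, so their counts are descriptions only. Of 15 tested genes that process or release the ligands, 8 rose and 2 fell (66.7% called). Mmp14, a membrane protease, rose (log2 fold change 1.09, from 219 ± 6.7 to 465 ± 2.91 CPM), as did Pcsk6, a convertase that trims BMP and TGF-beta precursors (1.94), and Fbn1, the fibrillin that holds latent complexes (0.97). Mmp2 (-0.62) and Emilin1 (-0.38), a matrix protein that limits TGF-beta maturation, fell. Of 14 tested extracellular modulators and co-receptors, 6 rose and 7 fell (92.9%). Neo1 (0.80), Sulf1 (0.99) and Aspn (1.13) rose, whereas Dcn (-2.12), which binds TGF-beta, Rgmb (-0.75), a BMP co-receptor, and Twsg1 (-0.35), a BMP binder, fell. Of 18 intracellular regulators, 8 rose and 2 fell (55.6%, near the share over all genes). Pmepa1 (0.80), Ski (0.63) and Zfyve9 (0.88), of which the first and the second are brakes on SMAD signalling and the third a receptor adaptor, were higher, and Nedd4l (-0.69) and Lemd3 (-0.18) were lower.

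Genes known to respond to the pathway, none of them members, moved in both directions. Pmepa1, Skil, Itgb6 and Sost also stand in the pathway lists above. The response lists were chosen with earlier results of these data known, so their counts and medians are descriptions only. Of 19 tested TGF-beta response genes, 10 rose and 4 fell (73.7% called), with a median log2 fold change of 0.25 beside -0.01 over all tested genes. Tgfbi, a secreted matrix protein, rose from 205 ± 6.83 to 373 ± 3.18 CPM (0.86), as did Pmepa1 (0.80), while Postn, the matrix protein periostin, fell from 1180 ± 17.2 to 511 ± 22 CPM (-1.21), and Timp1 (-0.23) and Tagln (-0.20) fell less. Of 13 tested BMP response genes, 7 rose and 4 fell (84.6% called, median 0.32). Tbx20, a heart and mesenchyme factor, rose most (4.07, from 1.31 ± 0.195 to 22.0 ± 0.925 CPM), with Gata3 (1.44) and Dlx5 (2.78). Dlx3 (-3.72, from 0.43 to 0.0304 CPM), Gata2 (-0.54) and Hey1 (-0.79) fell. The ID genes, which belong to the same class of responder, fell in all 4 cases, so BMP-responsive genes did not move in 1 direction. The fibroblast, mesothelial and joint marker lists moved beside these genes as given above, and their part in the changes was not tested.

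**Figure D5:**
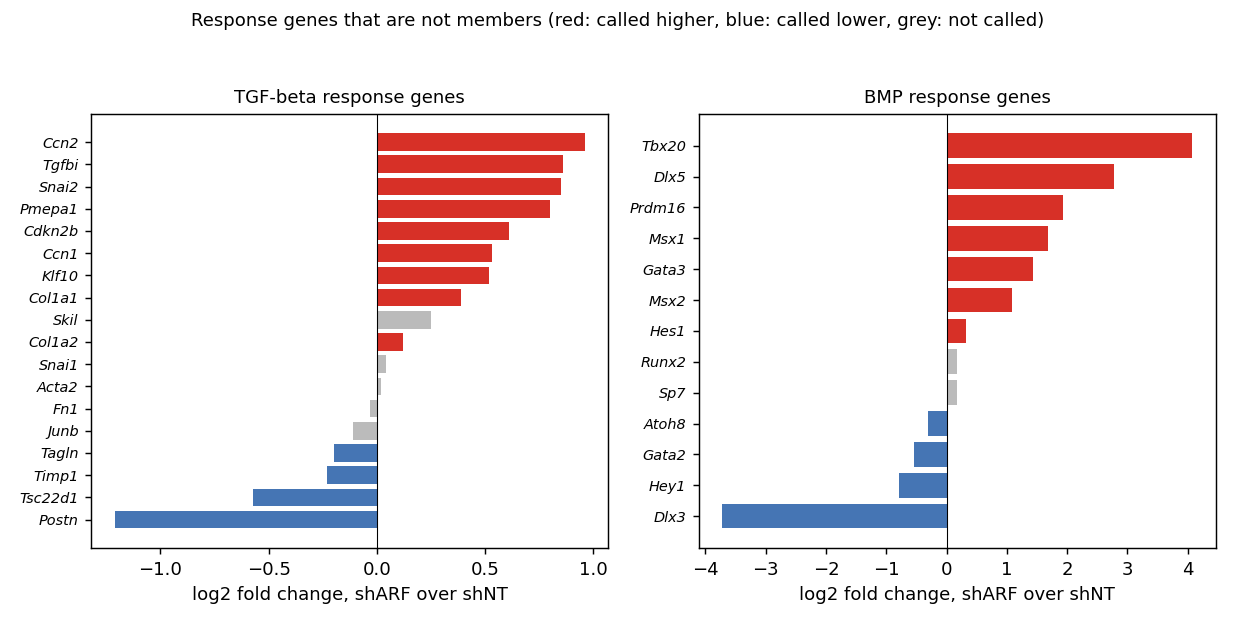
Log2 fold change (shARF over shNT) of TGF-beta response genes (left) and BMP response genes (right) that are not members, ordered by change. Tbx20 lies highest on the right at 4.07, and Postn and Dlx3 lie lowest at -1.21 and -3.72.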

How the data were processed

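Stranded RNA-seq libraries depleted of ribosomal RNA were made from 6 samples, 3 shNT and 3 shARF, per the labels. The deposited file is a matrix of raw counts for each gene, not normalized by the authors. Tools listed in the submitters' processing notes are HISAT2 2.1.0, StringTie 1.3.2, Picard 2.13.2, SAMtools 0.1.19, Trim Galore 0.4.1 and DESeq2 1.34.0, with build GRCm38 and no role for any. The tool used for counting and its strand setting are not given in the sources used. Another 6 columns of the matrix matched no sample and were not used. In the shARF columns the index numbers differ from those in the titles, so columns were matched on group and replicate. GENCODE M21 gave symbols and merged exon lengths for 54723 of 54752 IDs, compared without their version. The other 29 rows held 0.00291% of counts.

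Counts were filtered with filterByExpr (minimum count 10, minimum total 15), scaled by TMM and tested two-sided over all genes with edgeR 4.0.16 (glmQLFit, glmQLFTest, prior count 0.125) in R 4.3.3. The alternatives were DESeq2 1.42.0, limma-voom 3.58.1, other scalings and filters, a threshold of 0.01, a replicate block, chromosome-centred changes and leaving out each library. Scripts were tested on simulated data. Libraries of a group differed beyond counting noise, and each was counted as a sample. This excess does not show that the libraries are independent, since it may be technical. Same-numbered libraries did not deviate together (correlations -0.131, -0.047 and -0.033), so the numbers were not treated as pairs. The members, roles, other lists and markers were chosen with earlier results of these data known. Values in every library were given for members changed at least 2-fold with a mean of at least 1 CPM in a group, for members at 50 CPM or more, and for some beside them. From each other list, the 3 genes with the smallest p in each direction could be named. A fold against a group with no count uses a floor of 3 counts over the group, which covers counting error only. Counts cover all members and listed genes, but values of 1 member and 1 response gene are not reported here.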

Additional observations from a re-analysis of the deposited data

How the results depend on the processing

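Of the 44 called members, 40 kept their call in all of the 16 alternatives that tested them. The exceptions were Gdf11, Acvr1, Smad4 and Tgfbr2, of which Gdf11 (0.0267), Acvr1 (0.0125) and Smad4 (0.0117) had an adjusted p over 0.01. BMP response genes called lower numbered 4, but 2 at an adjusted p of 0.01 and 2 to 4 when 1 library was left out (2 without shARF 1 and 2 without shARF 3). Changes of sign were found only among uncalled members. With library sizes alone, Smad2 was at -0.06 and Smad6 at -0.03. Centred on the chromosome, Ltbp4 was at 0.07 and Smad6 at -0.06. With 1 library left out, Gdf1 ranged from -0.97 to 0.09 (0.09 without shARF 2), Acvr2b from -0.15 to 0.57 (-0.15 without shARF 2) and Smad2 from -0.03 to 0.08 (-0.03 without shNT 2, -0.02 without shARF 3). The cause was not tested. Some uncalled members were called lower in an alternative: Bmp1 (-0.25) and Tgfbr1 (-0.23) when centred on the chromosome, Ltbp2 in 5 alternatives, and Ltbp4 (-0.12), Tgfbr1 (-0.12) and Bmpr2 (-0.17) with library sizes alone, a setting that moved the median of all genes to -0.098. The replicate block changed no member call, with 24 members higher and 20 lower, and called 8913 genes in all against 9667. Of the 16 members under the filter, 12 had an adjusted p with no filter and 9 with DESeq2, and 1 was called, Acvr1c, lower in shARF (18 counts in shNT and 0 in shARF; adjusted p 0.0203 with edgeR and no filter, 0.0175 with DESeq2).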

Other observations

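Marker lists of other cell types, each a sum over its genes, were read in the same libraries. Smooth muscle markers summed to 1450 to 1500 CPM in shNT and 1350 to 1430 CPM in shARF. Of the 7 genes, 1 was higher and 5 were lower, beside 28.8% and 27.7% of all tested genes. Epithelial markers summed to 15.4 to 17.3 and 7.04 to 7.74 CPM, with Esrp1 at 0 in all libraries; Cdh1 rose (log2 fold change 1.17), Krt14 went from no count to 1.91 ± 0.112 CPM and Krt18 fell from 12.7 ± 1.05 to 0.15 ± 0.13 CPM. Macrophage markers summed to 6.73 to 7.47 and 1.5 to 1.99 CPM, with Adgre1, Itgam and Tyrobp at 0. Csf1r fell from 4.49 to 0.338 CPM (-3.72) and Cd68 from 2.5 to 1.36 CPM (-0.88). Osteoblast markers summed to 8.19 to 9.67 and 6.05 to 7.32 CPM, with Ibsp and Bglap at 0, Alpl higher (1.2) and Phex lower (-1.13). Neural and glial markers summed to 26.6 to 29.6 and 36.6 to 41.9 CPM, with Sox10 and Sox2 at 0. Tubb3, most of that sum, rose from 27.6 to 38.9 CPM (0.49). Adipocyte markers summed to 20.4 to 20.7 and 34.8 to 37.0 CPM, and 3 of 5 genes rose. Skeletal muscle markers were at 0 in shNT and at most 0.0895 CPM in shARF.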
